A study of Mus musculus with 4 samples.

Results

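The liver sinusoid is lined by a specialised, fenestrated endothelium, and the genes described here mark the cells that form it. They are 10 genes, Stab1, Stab2, Lyve1, Clec4g, Kdr, Pecam1, Cdh5, Tek, Eng and Oit3, taken by gene name from the array annotation together with every probe of each that was not a control. The array carried 13 probes for them, printed on 22 spots, among 20815 probes for 16306 genes that were tested. All 13 probes were well above background in 4 of 4 control mice and in 4 of 4 knockout mice, so all 10 genes entered the comparison and none entered it through 1 genotype alone. The label was borne out to that extent only: these transcripts were measurable in every liver, in bulk RNA that holds many other cell types.

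Total liver RNA came from 8 untreated male mice of a mixed strain, 2 months old, 4 of them controls and 4 labelled as conditional liver knockouts of NIPP1. The gene Ppp1r8 encodes NIPP1, which binds protein phosphatase 1 in the nucleus and directs it to its substrates. Which Cre line was used, in which cells it acts, what part of the gene is deleted and which alleles the controls carry is not stated in these sources. Each of 4 two-colour arrays, called replicates 1 to 4, set 1 knockout mouse against 1 control mouse, with the knockout RNA in Cy3 on replicates 1 and 2 and in Cy5 on replicates 3 and 4. Each mouse was on 1 array only. The ratio of an array is therefore the unit (n = 4), and its spread holds the spread of both mice.

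Sinusoidal endothelial cells clear waste macromolecules from portal blood through scavenger and lectin receptors, let plasma reach hepatocytes through open fenestrae, and lack an organised basement membrane. Hepatocyte-derived VEGF, acting on the receptor encoded by Kdr, is known to help keep them in this state, while angiopoietins act on the receptor encoded by Tek and BMP ligands on complexes that include the product of Eng. Pecam1 and Cdh5 are carried by endothelium of all kinds, so they mark vessels rather than sinusoids.

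As a check of the labels, the brighter Ppp1r8 probe gave log2 knockout over control of -0.61, -0.75, -0.76 and -0.64 on replicates 1 to 4, a fitted value of -0.69 ± 0.05 (SE), and the other probe gave -0.67, -0.60, -0.60 and -0.77. Both probes were lower in the knockout mouse on every array, but in limma the adjusted p was 0.059, and it passed 0.05 in 6 of 15 alternative settings. Whether these probes lie in the deleted part is not known, so they check the labels only in part. Of the 16306 genes 0 were called higher and 0 lower at an adjusted p under 0.05 (0%), while 575 genes were higher (3.53%) and 337 lower (2.07%) at 0.1. At an unadjusted p under 0.05, 2067 genes were higher (12.7%) and 1650 lower (10.1%). No spot was saturated, and the number of arrays limits the precision. Pancreatic acinar genes stood apart in 2 livers, with a mean log2 level over the list of 3.23 relative to the dye mean in the knockout mouse of replicate 1 and 1.93 in the control mouse of replicate 2, against -1.49 to 0.06 in the other mice. Without replicate 1, and likewise without replicate 2, 0 of the 10 markers passed an adjusted p of 0.05, with marker medians of -0.06 and -0.10.

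None of the 10 markers passed the test of knockout against control livers. No other tested gene passed an adjusted p of 0.05 either, so this does not place the markers at control level. The interval of the fit ran from -0.56 to 0.30 for Clec4g and from -0.56 to 0.20 for Oit3. The fitted log2 ratio was below 0 for 10 of 10 markers, against 50.3% of all tested genes, and ran from -0.18 for Oit3 and Stab2 to -0.03 for Tek. Their median was -0.11, and that of all tested genes -0.0007. In limma 0 of 10 passed an adjusted p of 0.05 or of 0.1, and 0 of 10 had an unadjusted p under 0.05, against 22.8% of all genes in either direction. The array medians of the 10 genes were -0.07, 0.03, -0.20 and -0.02 on replicates 1 to 4. Replicates 1 and 3 were the low ones, and the median of the fit was -0.04 without replicate 3. It was -0.05 with median centring in place of loess. In bulk RNA, fewer endothelial cells and less RNA per cell cannot be told apart.

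**Figure D1:**
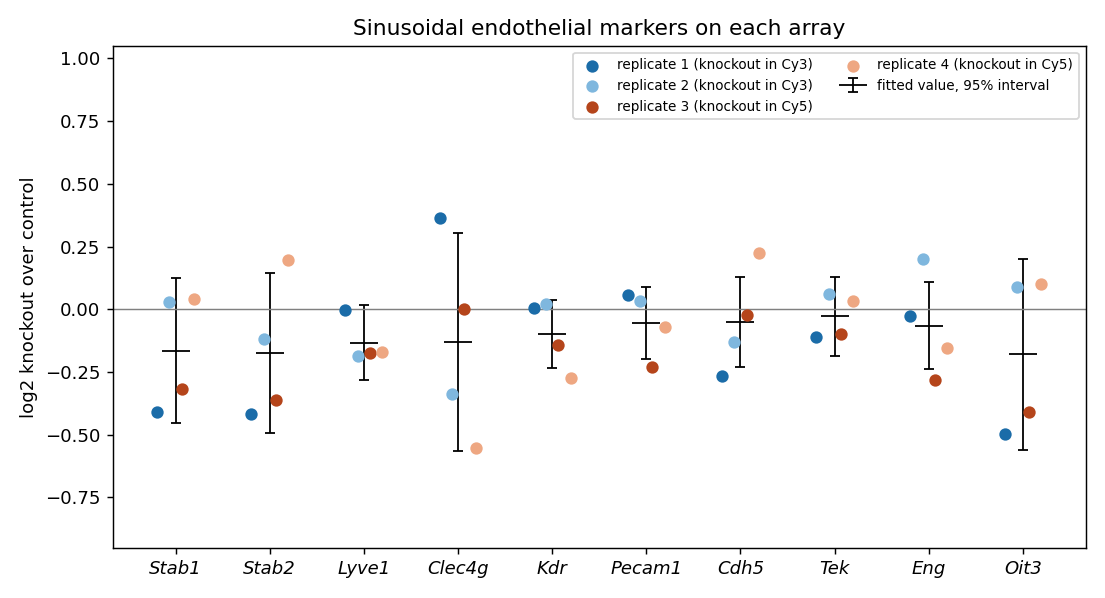
Log2 knockout over control (y axis) of the 10 markers on each of 4 arrays (points, coloured by replicate and by the dye of the knockout RNA), with the fitted value and its 95% interval. Every interval includes 0, and Lyve1 is the only gene with all 4 points below 0.

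The scavenger receptors Stab1 and Stab2 leaned lower on the same arrays. They encode stabilin-1 and stabilin-2, large scavenger receptors that take up hyaluronan, modified lipoproteins and other waste. Stab1 is also made by some macrophages. Stab1 (probe A_51_P232371; mm9 chr14:31952288-31952347, minus strand) gave -0.41, 0.03, -0.32 and 0.04 on replicates 1 to 4. It was lower in the knockout mouse on replicates 1 and 3 and near 0 on the others, with a fitted value of -0.16 ± 0.11 (SE, n = 4 arrays; 95% interval -0.45 to 0.13; limma adjusted p = 0.422). Its ratio was -0.05 without replicate 1, -0.27 without replicate 2, -0.07 without replicate 3 and -0.25 without replicate 4.

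Stab2 was read by 3 probes. The brightest, A_55_P1974028 (mm9 chr10:86303982-86304041, minus strand), gave -0.42, -0.12, -0.36 and 0.20. Replicates 1 and 3 were again the low ones, and the fitted value was -0.18 ± 0.12 (95% interval -0.49 to 0.14; limma adjusted p = 0.434). It came to -0.10 without replicate 1, -0.04 without replicate 3 and -0.31 without replicate 4. The file pairs the other probes with further Ensembl transcripts and not with the RefSeq one. Probe A_55_P2026487 gave -0.14, -0.08, 0.02 and -0.00, and A_55_P2026492 gave -0.14, 0.06, -0.02 and 0.11. Both stayed nearer to 0 than the brightest probe on every array, and with the mean of all probes Stab2 came to -0.07. They were also much dimmer. The raw Cy3 signal was 105 to 124 for A_55_P2026487 and 258 to 315 for A_55_P2026492, against 2630 to 3469 for the brightest.

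The RefSeq promoter table (GRCm38.p6) held 6 of the 10 genes, Stab1, Stab2, Clec4g, Kdr, Tek and Eng. Stab1 and the brightest Stab2 probe were lowest on replicates 1 and 3, as were Oit3 and, by less, Tek. The 250 bases before the start of Stab1, Stab2 and Clec4g are printed because these stabilin probes showed that pattern and Clec4g did not. They lie on the minus strand at chr14:31168642-31168891, chr10:87007943-87008192 and chr8:3720652-3720901, run 5′ to 3′ along the gene, and carry in capitals each match to AGGAAG or its reverse complement CTTCCT, letters that many ETS factors of endothelial cells can bind.
Stab1: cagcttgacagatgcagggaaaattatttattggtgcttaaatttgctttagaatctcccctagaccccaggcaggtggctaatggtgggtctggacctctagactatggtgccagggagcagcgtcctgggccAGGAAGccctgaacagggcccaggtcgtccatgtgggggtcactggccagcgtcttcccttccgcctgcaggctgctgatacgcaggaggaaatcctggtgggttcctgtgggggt
Stab2: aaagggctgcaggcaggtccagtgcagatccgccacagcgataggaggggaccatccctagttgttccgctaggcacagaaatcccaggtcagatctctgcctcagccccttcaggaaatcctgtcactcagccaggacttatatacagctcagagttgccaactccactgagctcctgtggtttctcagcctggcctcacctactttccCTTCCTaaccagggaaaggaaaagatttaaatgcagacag
Clec4g: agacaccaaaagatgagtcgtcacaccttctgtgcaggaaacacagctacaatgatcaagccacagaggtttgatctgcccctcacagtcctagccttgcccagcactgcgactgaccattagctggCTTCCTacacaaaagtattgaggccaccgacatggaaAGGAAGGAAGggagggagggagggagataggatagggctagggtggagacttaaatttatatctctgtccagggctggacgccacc
The match in Stab1 begins 116 bases before the start and that in Stab2 40 bases before it. Clec4g holds 3 matches, at 123, 86 and 82 bases, of which the last 2 overlap. Of the 6 promoters 4 held the letters (Stab1, Stab2, Clec4g and Eng), as did 29.5% of all 32851 promoters of the table. GATA4 is a known regulator of sinusoidal endothelial identity, and AGATAA or its reverse complement TTATCT was in 0 of 6 promoters (9.99% of all), TGATAA or TTATCA in 0 of 6 (7.94%). TATAAA or TTTATA was in Clec4g alone of the 6 (12.4% of all). A match is a description of letters in this window and not a site.

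Lyve1 encodes a hyaluronan receptor of sinusoidal and lymphatic endothelium. Its probe (A_52_P686785; mm9 chr7:117994171-117994230, minus strand) gave -0.003, -0.19, -0.18 and -0.17, and Lyve1 was the only marker below 0 on all 4 arrays, which held for 10.8% of all genes. On separate channels, the log2 intensity of Lyve1 in Cy5 was 7.15 and 7.14 in the control mice against 7.09 and 7.02 in the knockout mice, and in Cy3 it was 7.27 and 7.19 in the controls against 7.15 and 6.95. Both knockout mice lay below both control mice in each dye, as for 9.55% of all genes. The fitted value was -0.13 ± 0.06 (95% interval -0.28 to 0.02; limma adjusted p = 0.252), and -0.09 without replicate 2. The raw Cy3 signal of Lyve1 was 77.0 to 102 over a local background of 20.5 to 24.5, and its ratio differed between processings. The value table deposited by the authors, made with another background correction and normalisation, had log2 ratios for Lyve1 of 0.05, -0.41, -0.40 and -0.34, a mean of -0.27, with a limma adjusted p of 0.231.

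Clec4g encodes LSECtin, a C-type lectin of sinusoidal endothelium that binds glycans of pathogens and of T cells. Its probe (A_51_P145662; mm9 chr8:3716182-3716241, minus strand) gave 0.37, -0.34, 0.001 and -0.55. It was higher in the knockout mouse on replicate 1 and lower on replicates 2 and 4, the reverse of the order seen for Stab1 and Oit3. The fitted value of Clec4g was -0.13 ± 0.16 (95% interval -0.56 to 0.30; limma adjusted p = 0.668), the widest interval of the 10, and it was -0.31 without replicate 1, -0.27 without replicate 3, 0.04 without replicate 2 and 0.01 without replicate 4.

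Oit3 encodes a secreted protein with a zona pellucida domain that is made mainly in liver. Its probe (A_52_P574720; mm9 chr10:58886254-58886313, minus strand) gave -0.50, 0.09, -0.41 and 0.10, and so was low on the same replicates 1 and 3 as Stab1 and Stab2. The fitted value was -0.18 ± 0.14 (95% interval -0.56 to 0.20; limma adjusted p = 0.503), and it was -0.03 without replicate 1 and -0.05 without replicate 3, against -0.33 without replicate 2 and -0.31 without replicate 4. In Cy5 the knockout mice had a log2 intensity of 10.33 and 10.59 against 10.61 and 10.40 in the controls, and so overlapped.

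Among the signalling receptors, Kdr encodes VEGF receptor 2, the main mitogenic receptor for VEGF-A. The probe that stood for it, A_55_P2094469 (mm9 chr5:76330395-76330454, minus strand), gave 0.004, 0.02, -0.14 and -0.27. It was at 0 on the arrays with the knockout in Cy3 and below 0 on those with the knockout in Cy5. Its fitted value was -0.10 ± 0.05 (95% interval -0.23 to 0.04; limma adjusted p = 0.329).

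The second Kdr probe, A_51_P316553 (mm9 chr5:76329309-76329368, minus strand), was printed 10 times on each array, which gives the spread of single spots. It gave -0.59, -0.19, -0.16 and 0.04 on replicates 1 to 4, with an SD between its 10 spots of 0.028, 0.030, 0.024 and 0.032. On replicate 1 the spots ran from -0.63 to -0.54, and on replicate 4 from -0.002 to 0.09. The spots of replicates 1 and 4 did not overlap. These arrays hold different mice and carry the knockout RNA in different dyes, so mouse and dye cannot be told apart for this pair. Arrays of the same orientation did not overlap either. Replicate 2, with the knockout in Cy3 as on replicate 1, ran from -0.22 to -0.12. Replicate 3, with it in Cy5 as on replicate 4, ran from -0.22 to -0.14. What sets the arrays apart was not tested. The probe's fitted value was -0.23 (unadjusted p = 0.0586 in the limma fit over all probes, adjusted p = 0.232). The 2 probes differed by -0.59, -0.21, -0.02 and 0.31, a mean of -0.13 with an SD of 0.38, and the file pairs them with different Ensembl transcripts of Kdr but with the same RefSeq transcript. Replicate 4 was the lowest array for the first probe and the highest for the second. With the mean of both, Kdr came to -0.16 (limma adjusted p = 0.206).

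**Figure D2:**
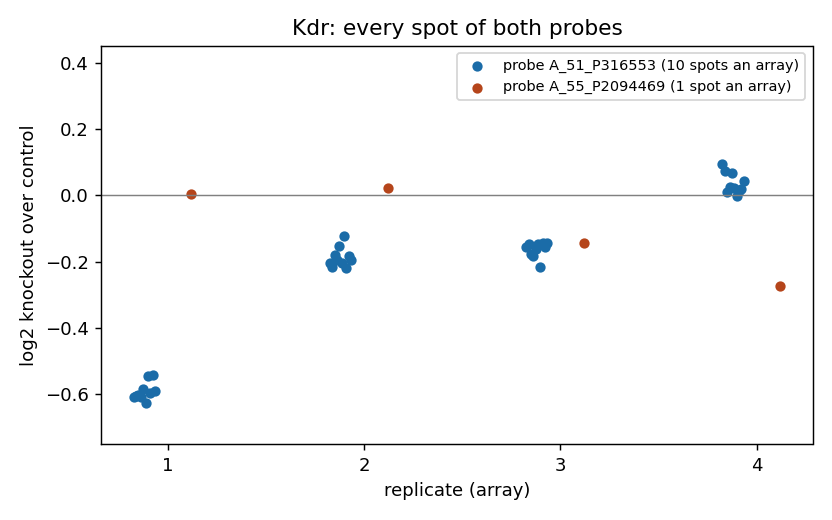
Log2 knockout over control (y axis) of every Kdr spot on the 4 arrays (x axis), for probe A_51_P316553 with 10 spots an array and probe A_55_P2094469 with 1. The 10 spots of an array lie close together, while the arrays run from -0.59 to 0.04 for the one probe and from 0.02 to -0.27 for the other.

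Tek encodes TIE2, the receptor tyrosine kinase for angiopoietins, and Eng encodes endoglin, a co-receptor for BMP9 and TGF-beta. The Tek probe (A_55_P2262136; mm9 chr4:94540624-94540683, plus strand) is printed as the sequence the Tek values rest on, with the tyrosine codons of the first of its 2 frames without a stop in capitals.
Tek: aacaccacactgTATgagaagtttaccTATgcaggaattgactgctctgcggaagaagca
It gave -0.11, 0.06, -0.10 and 0.03, lower in the knockout mouse on replicates 1 and 3 and higher on the others. The probe is dim, with a raw Cy3 signal of 120 to 129 over a local background of 21 to 24. The fitted value for Tek was -0.03 ± 0.06 (95% interval -0.19 to 0.13; limma adjusted p = 0.803), the nearest to 0 of the 10. It was 0.01 without replicate 1, 0.004 without replicate 3, -0.07 without replicate 2 and -0.06 without replicate 4. Eng (A_55_P2040936; mm9 chr2:32537268-32537327, plus strand) gave -0.03, 0.20, -0.28 and -0.15, with only replicate 2 above 0. Its fitted value was -0.06 ± 0.06 (95% interval -0.24 to 0.11; limma adjusted p = 0.591), -0.01 without replicate 1, -0.03 without replicate 3 and -0.12 without replicate 2.

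Pecam1 (CD31) and Cdh5 (VE-cadherin) hold endothelial cells together at their contacts. The Pecam1 probe (A_55_P2087087; mm9 chr11:106540864-106540923, minus strand) is printed likewise, with the tyrosine codon of its 1 frame without a stop in capitals.
Pecam1: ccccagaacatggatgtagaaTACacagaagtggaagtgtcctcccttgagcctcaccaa
It gave 0.06, 0.03, -0.23 and -0.07, above 0 on both arrays with the knockout in Cy3 and below 0 on both others, as did 24.2% of all genes in one sense or the other. The fitted value of Pecam1 was -0.05 ± 0.05 (95% interval -0.20 to 0.09; limma adjusted p = 0.598), -0.01 without replicate 3 and -0.09 without replicate 4. Cdh5 (A_52_P248604; mm9 chr8:106668159-106668218, plus strand) gave -0.27, -0.13, -0.02 and 0.22, lowest on replicate 1 and above 0 on replicate 4 alone. Its fitted value was -0.05 ± 0.07 (95% interval -0.23 to 0.13; limma adjusted p = 0.697), -0.02 without replicate 1, 0.01 without replicate 3 and -0.11 without replicate 4. In the value table deposited by the authors the means over the 4 arrays were -0.12 for Pecam1, -0.09 for Cdh5 and -0.05 for Tek.

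Seen by mouse, with each dye centred on its own mean, the mean over the 10 markers was 0.05, 0.03, 0.11 and 0.02 in the control mice of replicates 1 to 4 and -0.10, -0.03, -0.07 and -0.02 in the knockout mice. All 4 knockout means were below all 4 control means, with the highest knockout mean at -0.02 and the lowest control mean at 0.02. Centring within a dye makes the knockout and control means of that dye mirror each other around 0. The share of all genes, or of other sets of 10 genes, with such a separation over the 8 mice was not counted. The separation therefore has no background here. For single genes, which is another measure, both knockout mice lay below both controls in each dye for 9.55% of all genes. The list means of the pan-endothelial genes did not overlap either, at 0.02 to 0.10 in control and -0.13 to 0.01 in knockout mice, nor did those of the erythroid genes (lower in knockout mice) and of the biliary genes (higher). Of single markers, both knockout mice lay below both controls in Cy3 for Lyve1, Kdr, Pecam1, Tek and Oit3 (24.6% of all genes), and in Cy5 for Stab2, Lyve1 and Eng (24.6%). For Tek and Oit3 in Cy3 the higher knockout and the lower control mouse were almost equal. Their log2 intensities were 7.61169 and 7.61181 for Tek, and 10.49132 and 10.49174 for Oit3. None of the 10 had both knockout mice above both controls in both dyes, against 11.4% of all genes.

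**Figure D3:**
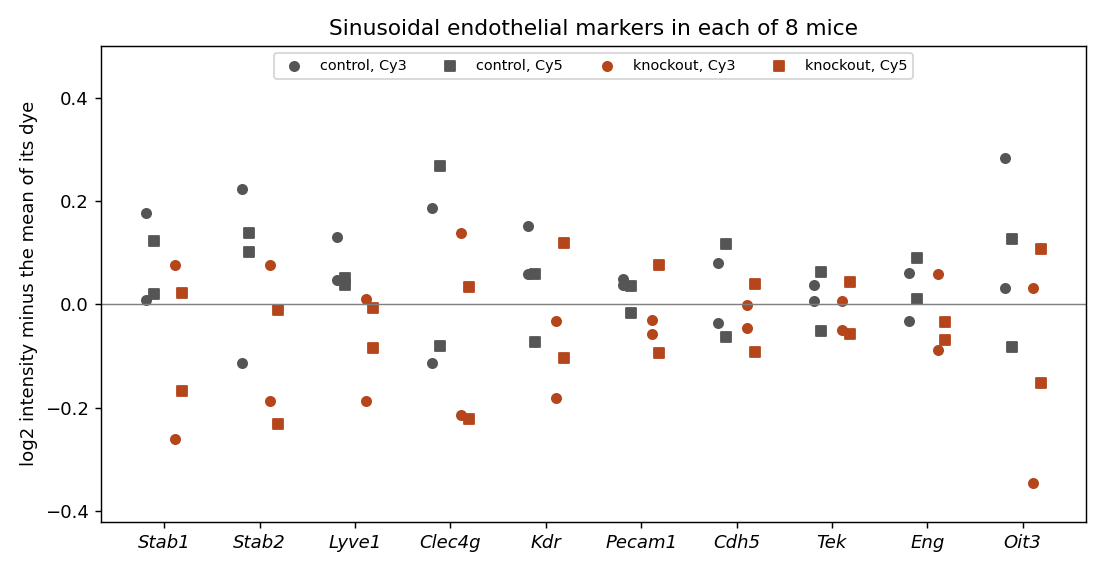
Log2 intensity of each marker in each of 8 mice after subtraction of the mean of its dye (y axis), by genotype (colour) and dye (shape). Lyve1 is the only marker for which both knockout mice lie below both controls in each dye; the other markers overlap in at least 1 dye.

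The 5 other genes whose centred level over the 8 mice was most like the mean of the markers were Igfbp1 (r = 0.99), Snx25 (0.99), Ubr3 (0.98), Ccdc90b (0.98) and Foxp1 (0.98). These r are a description, since they are the highest of all tested genes, the 2 mice of an array share its spots, and the 8 mice hold both genotypes. Igfbp1, a hepatocyte-secreted binding protein for insulin-like growth factors, had a fitted log2 ratio of -1.64 and Foxp1, a forkhead transcription factor, one of -0.41, with limma adjusted p-values of 0.104 and 0.181.

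Further genes of the sinusoidal endothelium lay more often below than above 0, by small amounts. Of 22 listed, 20 were tested (Dnase1l3 and Il1a were not above the filter on dim probes), with 5 above and 15 below 0 (50.3% of all genes were below), a median of -0.05 and none past an adjusted p of 0.05. At an unadjusted p under 0.05, 0 were higher and 1 lower (12.7% and 10.1% of all genes), and that gene was Gpr182, a G-protein-coupled receptor of sinusoidal cells. Gpr182 gave 0.25 and 0.43 with the knockout in Cy3 but -0.79 and -0.66 with it in Cy5. The orientations had opposite signs, and the dye term of the fit takes up that difference, so the value of -0.19 ± 0.06 (limma adjusted p = 0.178) has no common direction over the arrays. The scavenger and Fc receptors Mrc1 and Fcgr2b, which macrophages also carry, followed the order of Stab2. Mrc1 gave -0.38, -0.09, -0.20 and 0.09, and Fcgr2b -0.54, -0.17, -0.20 and 0.18, with limma adjusted p-values of 0.366 and 0.351. Bmp2, an angiocrine signal for hepatocyte iron sensing, gave -0.57, 0.02, -0.50 and -0.06, low on replicates 1 and 3 as Stab1 and Oit3 were (fitted -0.28, limma adjusted p = 0.305). Mmrn2, a matrix protein that binds the CLEC14A receptor, was below 0 on all 4 arrays, at -0.06, -0.03, -0.15 and -0.23.

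Genes of endothelium in general also lay mostly below 0. Of 28 listed 27 were tested (Erg was not), with 3 above and 24 below 0 (50.3% of all genes were below) and a median of -0.10. On all 4 arrays 6 were below 0 (10.8% of all genes). None passed an adjusted p of 0.05. At an unadjusted p under 0.05, 0 were higher and 4 were lower (12.7% and 10.1% of all genes). Myct1, an endothelial target of ETS factors, gave -0.17, -0.22, -0.25 and -0.30, a fitted -0.24 ± 0.05 (limma adjusted p = 0.102). Ptprb (VE-PTP), a phosphatase that acts on TIE2 and VE-cadherin, gave -0.25, -0.22, -0.26 and -0.09 (limma adjusted p = 0.139). Nrp1, a VEGF co-receptor, gave -0.23, -0.22, -0.11 and -0.10, and Flt1 (VEGF receptor 1) gave -0.20, -0.03, -0.25 and -0.30, with adjusted p-values of 0.152 and 0.154. These 4 genes had the same sign on every array, with ratios of -0.30 to -0.03. Egfl7, a secreted vessel protein, gave -0.37, 0.07, -0.42 and -0.19. The array medians of the list were -0.21, -0.01, -0.21 and 0.01, so replicates 1 and 3 were the low ones here too.

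Genes of continuous vessels and lymphatics, which sinusoids carry little of, had 6 above and 7 below 0 among 13 tested of 18 listed (Ccl21a had no probe of that name, and Cav1, Sele, Mmrn1 and Aplnr were not above the filter), with a median of -0.02. At an unadjusted p under 0.05, 1 was higher and 1 lower (12.7% and 10.1% of all genes). Selp, the adhesion molecule P-selectin, gave 0.28, 0.26, 0.53 and 0.39, above 0 in the knockout mouse on 4 of 4 arrays, with a fitted value of 0.37 ± 0.05 (limma adjusted p = 0.067; 0.011 to 0.291 over 15 alternatives, of which 4 passed 0.05). Selp is dim, and it stood at 0.81 in the value table deposited by the authors. Ackr1 (Darc in the file), a chemokine-binding receptor of venules, gave -0.17, -0.39, -0.21 and -0.0004.

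Among ligands that act on endothelium, a list that goes beyond the ligands of KDR, TIE2 and endoglin, the lowest p was that of Vegfa, the VEGF-A gene, which hepatocytes also express. Vegfa gave -0.76 and -0.87 with the knockout in Cy3 and -0.15 and -0.24 with it in Cy5, lower in the knockout mouse on 4 of 4 arrays but by unequal amounts in the 2 orientations. Its fitted value was -0.50 ± 0.05 with a limma adjusted p of 0.059, which was 0.025 to 0.268 over 15 alternatives and passed 0.05 in 3 of them. Without the dye term the adjusted p was 0.205. Among 9 ligands tested of 13 listed (Pgf, Angpt1, Bmp10 and Apln were not above the filter), 2 were above and 7 below 0. Of all genes 50.3% were below 0. At an unadjusted p under 0.05, 1 was higher and 3 lower (12.7% and 10.1% of all genes). Besides Vegfa the lower ones were Angpt2, an antagonist ligand of TIE2, at -0.10, -0.10, -0.24 and -0.15, and Vegfb, at -0.55, -0.55, 0.13 and 0.19. The higher one was Cxcl12, at -0.19, -0.15, 0.74 and 0.98. Vegfb and Cxcl12, named after their values were seen because the count is small, had opposite signs in the 2 dye orientations.

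Partners and targets of the receptors held 6 above and 15 below 0 among 21 tested of 22 (Shc2 was not above the filter). Their median was -0.07, and 50.3% of all genes were below 0. None passed an adjusted p of 0.05. At an unadjusted p under 0.05, 3 were higher (Id2, Id3 and Tgfbr2) and 3 lower (Plcg1, Tgfbr1 and Nrp2), against 12.7% and 10.1% of all genes. All but Id3 were named after their values were seen. Id3, a transcriptional target of BMP signalling, gave 0.35, 0.23, 0.04 and 0.28 (fitted 0.23, limma adjusted p = 0.159). Plcg1, which carries the KDR signal onward, gave -0.20, -0.13, -0.32 and -0.23 (fitted -0.22, limma adjusted p = 0.116). Id3 and Plcg1 each had 1 sign on all 4 arrays. The other four did not: Id2 gave -0.41, -0.11, 0.68 and 0.96, Tgfbr2 -0.11, 0.02, 0.46 and 0.68, Nrp2 -0.60, -0.51, -0.01 and 0.29, and Tgfbr1 -0.35, -0.30, 0.02 and -0.01. For Id2 the dye orientations had opposite signs. Klf2, a flow-induced factor of endothelium, was below 0 on all 4 arrays, at -0.37, -0.01, -0.89 and -0.13, but with an SE of 0.15 around -0.35 (limma adjusted p = 0.266).

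**Figure D4:**
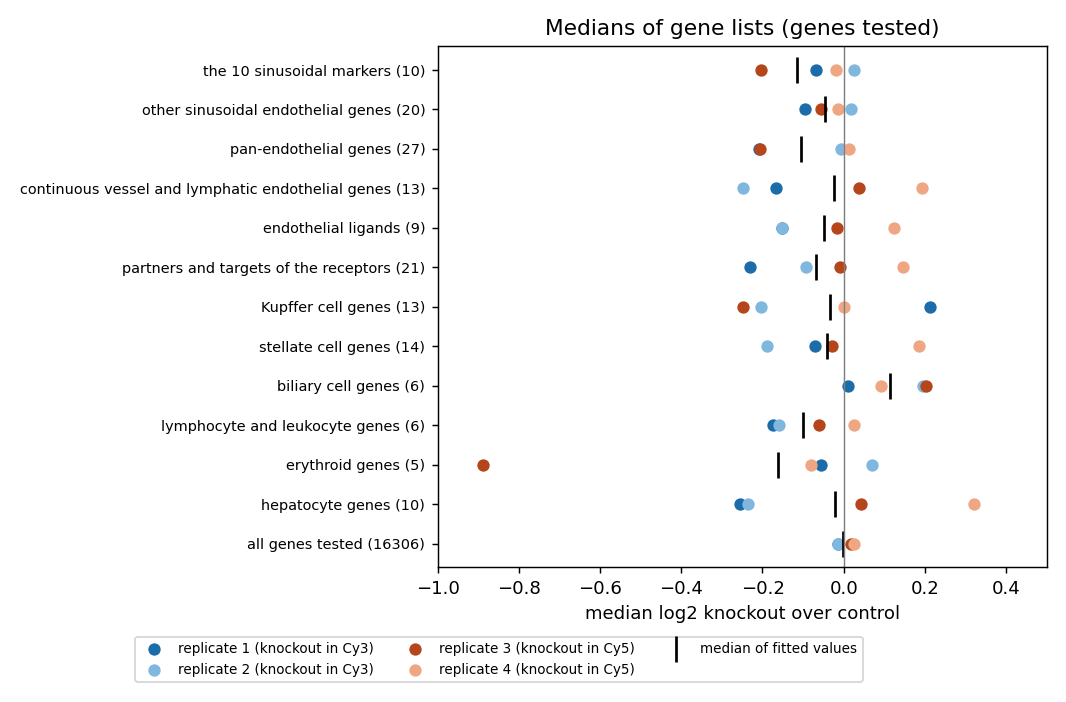
Median log2 knockout over control (x axis) of each gene list on each of 4 arrays (points) and in the fit (black bars), with the number of genes tested in brackets. The 10 markers have a fitted median of -0.11 and the pan-endothelial genes -0.10, with replicates 1 and 3 of the latter at -0.21. Pancreatic acinar genes, which run from -2.72 to 4.17, are not drawn.

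Markers of other cells in the same RNA moved as follows, and their part in the marker values was not tested. Of all tested genes 50.3% were below 0. In Kupffer cell genes (13 of 14 tested, Cd163 not above the filter) 4 were above and 9 below 0, with array medians of 0.21, -0.20, -0.25 and 0.0007 and list means of -0.22 to 0.30 in control and -0.31 to 0.44 in knockout mice. Their high replicate 1 is the array on which Stab1, Stab2 and Oit3 were lowest. In stellate cell genes (14 of 14) 4 were above and 10 below 0, with a median of -0.04 and list means of -0.02 to 0.07 in control and -0.08 to 0.06 in knockout mice. Hepatocyte genes (10 of 10) split into 5 above and 5 below 0, with array medians of -0.26, -0.24, 0.04 and 0.32.

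Biliary genes (6 of 7 tested, Muc1 not above the filter) had 5 above and 1 below 0, led by Krt19, a keratin of bile ducts, at 0.14, 0.52, 1.0015 and 0.91 (limma adjusted p = 0.064). The 1 below 0 was Sox9, at -0.20, -0.78, 0.04 and 0.09. Fitted values were 0.64 for Krt19 and 0.37 for Spp1, against 0.13 for Krt7, 0.10 for Epcam and 0.01 for Cftr. All of these but Krt19 and Spp1 were named after their values were seen. The list means of the biliary genes were -0.17 to -0.02 in control and -0.01 to 0.13 in knockout mice, and so did not overlap. Erythroid genes (5 of 7 tested) were all below 0 in the fit, among them Car1, the red-cell carbonic anhydrase, at -1.20, -0.52, -1.48 and -1.46. The array medians of the list were -0.06, 0.07, -0.89 and -0.08 on replicates 1 to 4. Car1 had the largest ratio of 1 sign on all arrays. Alas2, named after its values were seen, had a lower fitted value of -1.56 but was higher in the knockout mouse on replicate 1, at 0.36, -2.08, -2.28 and -2.26. The other tested genes of the list, named likewise, had array values on both sides of 0. Hba-a1 gave -0.18, 0.21, -0.73 and 0.17, Hbb-b1 -0.06, 0.27, -0.89 and 0.03, and Slc4a1 0.04, 0.07, -0.13 and -0.08. Their fitted values were -0.13, -0.16 and -0.03. The list means of the erythroid genes were 0.06 to 0.43 in control and -0.45 to 0.01 in knockout mice, and did not overlap either. Lymphocyte and leukocyte genes (6 of 10 tested) had 6 of 6 below 0 with a median of -0.10. Pancreatic acinar genes (10 of 10) had array medians of 4.17, -2.72, -0.17 and -1.08, with list means of -1.49 to 1.93 in control and -1.24 to 3.23 in knockout mice, and the knockout mouse of replicate 1 was the highest.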

How the data were processed

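Total liver RNA of 4 control and 4 knockout mice was measured on 4 Agilent 4x44K arrays (1 slide). Per the file headers, the deposited scanner files hold mean intensity and local background intensity per spot and dye from Agilent Feature Extraction 10.7.3.1, with probe positions on mm9. A deposited table of log2 ratios accompanies them. These equal log2 knockout over control of the software's processed signals within 5e-06, uncentred, with column medians of -0.05, 0.14, -0.18 and -0.18.

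Background was corrected by normexp with an offset of 50, fitted without non-uniform spots and the lowest 0.1% of spots, because a fit on every spot failed on replicate 1 (background means of -185 in Cy5 and -273 in Cy3). The fitted background SD then came out at 0.0007 or less, so the step acts as subtraction of a constant (-7.98 to 7.52), with spots below it set to the offset. Loess within arrays followed (control spots at weight 0), outlier spots (194 to 230 an array) were dropped and spots of a probe averaged. Probes were tested where 3 or more mice of either genotype had them well above background, and the brightest stood for its gene. In each dye 52.7% to 56.3% of spots reached that level.

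Limma 3.58.1 (R 4.3.3, the package data.table, version 1.17.8, statmod 1.5.0) fitted array ratios with a dye intercept, 2 residual degrees of freedom, two-sided tests and Benjamini-Hochberg adjustment over 16306 genes at 0.05. The dye term takes up differences between orientations, which standard errors then leave out. The fit was tested on simulated ratios with changes of 1 or 2 in log2, larger than any marker ratio, and with noise not taken from these arrays. It therefore does not show how the fit performs for ratios as small as those of the markers. Levels per mouse used loess and Aquantile. Figures used matplotlib 3.10.9. All 4 arrays share 1 slide and 1 scan, so neither can be a batch.

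The members and gene lists were chosen with earlier results of these data known. Named are all members, the genes of each other list past an adjusted p of 0.05 (at most 6), its 2 with the largest ratio of 1 sign on all arrays, the 5 with the lowest p of the other sinusoidal and pan-endothelial lists, and the 5 genes most like the members. In lists of other cell types, not every gene so named is described.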

Additional observations from a re-analysis of the deposited data

Results flagged for a closer look

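Among the 13 probes of the markers, 1 array value stood apart from the rest of its 4. Lyve1 on replicate 1 gave a log2 knockout over control of -0.0031, against -0.19, -0.18 and -0.17 on replicates 2 to 4, and the gap to the nearest of the others was 0.907 of the whole range. Chance alone marks about 1 in 20 groups of this kind, and 13 probes were examined.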

How the results depend on the processing

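In every one of 15 alternatives 0 of the 10 markers passed an adjusted p of 0.05 in limma, and the lowest adjusted p of any was 0.137. At an unadjusted p under 0.05 the count was 0 or 1. The median ratio of the markers stayed below 0, from -0.13 to -0.04, and at -0.10 to -0.04 with 1 array left out. Over all genes 0 passed 0.05 in the main setting, 0 with each array left out, 8 in the deposited value table, 29 without background correction, 209 with median centring, 10 without the dye term, 240 without the filter, 394 with trend and robust and 270 in the value table centred on its median, added after seeing the data. On the pairing of mice by array, separate channels gave 1827 genes with the array as a random block and 714 with no replicate block, with 0 markers past 0.05 in both. Single markers turned above 0 where an array was left out: Tek ran from -0.071 to 0.014 (above 0 without replicates 1 or 3), Clec4g from -0.31 to 0.045 (without 2 or 4) and Cdh5 from -0.11 to 0.013 (without 3). Tek also came to 0.021 in the centred value table. The cause was not tested. With median centring in place of loess, the array medians of the markers were -0.62, -0.62, 0.44 and 0.55, so array values rest on loess. Centring the value table moved the median of all genes from -0.01 to 0.06, and median centring put it at 0.03. Lyve1 and Selp differed by more than 1.5 times between the main setting and the value table, and so did other named genes. Among them Ppp1r8 stood at -0.69 in the main setting and -1.33 in the value table, and Myct1 at -0.24 and -0.37. Of the markers, Pecam1 stood at -0.053 and -0.123, Cdh5 at -0.049 and -0.091, and Tek at -0.028 and -0.051.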
